A study of Mus musculus with 16 samples.

Results

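The PARP family genes Parp9, Parp10, Parp11, Parp12, Parp14 and Parp8, the partner gene Dtx3l, and the DNA repair genes Parp1 and Parp2 were followed across T cells of visceral fat and lymph node. These 9 genes were picked by name, with earlier results of these data known. All 9 are among the 54456 gene rows of the deposited count table and passed the filter on low counts. PARP enzymes transfer ADP-ribose from NAD+ onto proteins and nucleic acids. Parp1 and Parp2 build chains of it at DNA breaks, whereas most other members add single units, and several of those are induced by interferons and act in antiviral defence. Dtx3l is a ubiquitin ligase that forms a stable complex with Parp9, and in human cells the pair acts downstream of interferon.

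The cells came from OT-I mice, which carry a transgenic T cell receptor for an ovalbumin peptide on MHC class I, so that most of their T cells are CD8 cells. There were 4 groups of 4 libraries each: visceral adipose tissue on a high-fat diet (HFD VAT), lymph nodes on a high-fat diet (HFD LN), visceral adipose tissue on standard chow (Lean VAT) and lymph nodes on standard chow (Lean LN). The high-fat diet had 60% of its calories from fat, and both diets were given for 8 weeks; strain, age and sex are not stated in the labels used here. The receptor transgene was shared by every group, and the labels name the cells as freshly isolated in 1 place and as kept in culture overnight before the sort in another. An overnight culture would apply to all 4 groups, and its effect on interferon-induced genes was not tested.

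Libraries held 40212388 to 65957407 counts. Levels below are CPM, counts relative to the TMM-scaled library total, and are comparable between samples but not between genes, since they are not divided by length. The T cell markers Cd3d, Cd3e, Cd3g, Cd2, Lck, Thy1, Trac, Cd8a and Cd8b1 were all detected in every group. The labels call the replicates biological but do not say whether each library is 1 animal or a pool, so p-values measure the spread between these libraries. In 3 VAT libraries (replicates 1 and 3 of HFD VAT and replicate 1 of Lean VAT) 11.4% to 13.3% of the genes that were well expressed in the rest of the group had 3 counts or fewer, against 0.818% to 5.45% in the other 13 libraries. Results are therefore also given without those 3 libraries where that changes them.

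The comparison of the 2 tissues asks how T cells of visceral fat differ from those of lymph node on the same diet. On the high-fat diet Parp9, Dtx3l, Parp10 and Parp14 rose in VAT, by 7.83-fold, 7.25-fold, 4.98-fold and 10.1-fold. The same 4 genes rose in VAT of lean mice, by 7.98-fold, 3.66-fold, 5.18-fold and 19.2-fold. Parp8, Parp1 and Parp2 did not pass the test on either diet. Thus 4 of 9 members rose and 0 fell on each diet, where 2.68% of the 15675 genes tested rose and 1.88% fell on the high-fat diet, and 2.12% rose and 0.919% fell in lean mice (edgeR's quasi-likelihood test, Benjamini-Hochberg adjusted p under 0.05). The median log2 fold change of the 9 members was 2.32 on the high-fat diet and 1.87 in lean mice, beside -0.10 and -0.003 over all genes tested. Because the members were chosen with earlier results of these data known, setting them beside all genes is description and no independent test. In bulk RNA a larger share of cells that express a gene and more RNA per cell cannot be told apart.

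**Figure D1:**
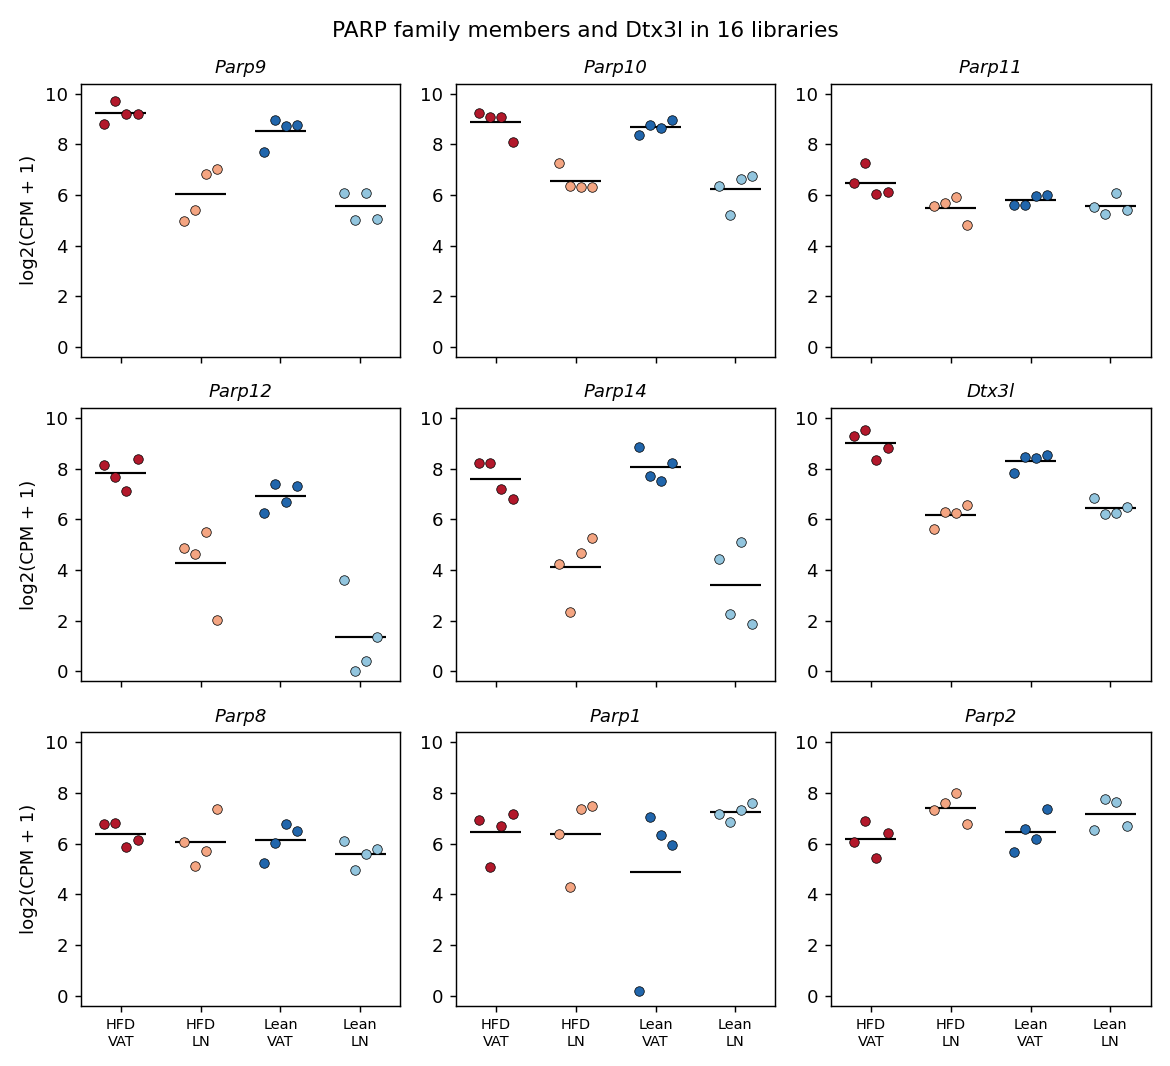
Level of each of the 9 genes in each of the 16 libraries, as log2(CPM + 1), with 1 point per library and a black line at the mean of the 4 log2 values of a group. Parp9, Parp10, Parp12, Parp14 and Dtx3l lie higher in every VAT library than in every LN library of the same diet, while the groups of Parp8, Parp1 and Parp2 overlap.

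Parp9, which carries macrodomains that bind ADP-ribose and works in complex with Dtx3l, had 447, 834, 588 and 585 CPM in the HFD VAT libraries, against 30.1, 41.7, 111 and 130 CPM in HFD LN. It had 208, 492, 428 and 436 CPM in Lean VAT, against 65.8, 31.6, 65.9 and 32.5 CPM in Lean LN. Every VAT library lay above every LN library on both diets, and the lowest VAT value came from replicate 1 of Lean VAT, the library with the largest share of missing genes. The log2 fold change was 2.97 on the high-fat diet (95% interval 1.93 to 4.01, edgeR adjusted p = 0.00199) and 3.00 in lean mice (95% interval 1.96 to 4.03, edgeR adjusted p = 0.00222).

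Dtx3l, the E3 ligase of the pair, had 631, 741, 323 and 449 CPM in HFD VAT, against 48.7, 77.9, 74.6 and 94.5 CPM in HFD LN. In Lean VAT it had 227, 352, 342 and 371 CPM, against 115, 74.0, 75.5 and 88.3 CPM in Lean LN. The tissues again did not overlap on either diet. The log2 fold change was 2.86 on the high-fat diet (95% interval 2.23 to 3.49, edgeR adjusted p = 4.75e-05), which was the smallest adjusted p of the 9 members, and 1.87 in lean mice (95% interval 1.27 to 2.48, edgeR adjusted p = 0.00138). In the RefSeq annotation of the mouse assembly GRCm38.p6 Dtx3l and Parp9 lie beside each other on chromosome 16 on opposite strands, and the annotated genes overlap at their starts. Neither of the library kits named in the labels is stated to keep strand, so reads from the shared stretch may have been divided between the 2 genes in an unknown way.

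Parp10, which adds single ADP-ribose units to proteins, had 605, 546, 539 and 269 CPM in HFD VAT, against 155, 80.9, 79.2 and 78.5 CPM in HFD LN. It had 327, 440, 400 and 493 CPM in Lean VAT, against 80.7, 36.1, 97.6 and 106 CPM in Lean LN. No VAT library came down to the level of an LN library. Its log2 fold change was 2.32 on the high-fat diet (95% interval 1.55 to 3.09, edgeR adjusted p = 0.00133) and 2.37 in lean mice (95% interval 1.60 to 3.14, edgeR adjusted p = 0.00140).

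Parp14, a macrodomain enzyme known as a coactivator of STAT6, had 295, 297, 147 and 109 CPM in HFD VAT, against 18.1, 4.12, 24.6 and 37.3 CPM in HFD LN. In Lean VAT it had 467, 208, 182 and 300 CPM, against 20.4, 3.79, 33.2 and 2.69 CPM in Lean LN. The tissues did not overlap, but the LN libraries ranged widely, from 2.69 to 37.3 CPM over both diets. The log2 fold change was 3.34 on the high-fat diet (95% interval 1.56 to 5.11, edgeR adjusted p = 0.0332) and 4.27 in lean mice (95% interval 2.42 to 6.12, edgeR adjusted p = 0.0125). The call on the high-fat diet was lost without any 1 of the 4 HFD LN libraries or without replicate 1 or 2 of HFD VAT, where the edgeR adjusted p was 0.0533 to 0.0965. It was also lost without the 3 VAT libraries rich in missing genes (edgeR adjusted p = 0.110), as was the call in lean mice (edgeR adjusted p = 0.0546), and the number of members called was then 3 on each diet. With 1 library left out the log2 fold change in lean mice was 3.906 to 5.002, the highest without replicate 3 of Lean LN, and stayed past the threshold. Parp14 lies near Dtx3l on chromosome 16, with 2 pseudogenes annotated between them.

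Parp12, a zinc-finger member that is induced by interferon, had 282, 201, 137 and 333 CPM in HFD VAT, against 28.6, 24.0, 44.1 and 3.08 CPM in HFD LN. It had 75.8, 165, 103 and 159 CPM in Lean VAT, against 11.1, 0, 0.329 and 1.57 CPM in Lean LN. The tissues did not overlap on either diet, yet the spread within LN was large and Parp12 did not pass the test. Its log2 fold change was 3.26 on the high-fat diet (95% interval 0.50 to 6.01, edgeR adjusted p = 0.184) and 5.27 in lean mice (95% interval 2.23 to 8.30, edgeR adjusted p = 0.0650). In lean mice it passed without replicate 1 of Lean LN, where the log2 fold change was 7.61 (edgeR adjusted p = 0.0136), or without replicate 2 of Lean LN, where it was 4.85 (edgeR adjusted p = 0.0471). DESeq2 called it on both diets (adjusted p = 0.0345 on the high-fat diet and 0.000228 in lean mice).

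Parp11, a small mono-ADP-ribosyltransferase of the nuclear envelope, had 88.7, 154, 65.6 and 68.7 CPM in HFD VAT, against 46.3, 50.8, 59.3 and 27.4 CPM in HFD LN. In Lean VAT the values were 47.8, 47.4, 61.6 and 63.7 CPM, against 44.6, 37.0, 67.0 and 41.2 CPM in Lean LN. The tissues were apart on the high-fat diet and overlapped in lean mice. Neither difference passed (log2 fold change 1.04, 95% interval 0.26 to 1.81, on the high-fat diet and 0.22, 95% interval -0.55 to 0.99, in lean mice), although DESeq2 called the first with an adjusted p of 0.0118.

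Of the 9 members, 6 had no overlap between HFD VAT and HFD LN, all of them higher in VAT, where 7.21% of all genes tested were higher in VAT without overlap. In lean mice 5 members were higher in VAT without overlap, where the share of all genes was 7.24%. No member was lower in VAT without overlap on either diet, where 8.01% and 5.7% of all genes were.

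**Figure D2:**
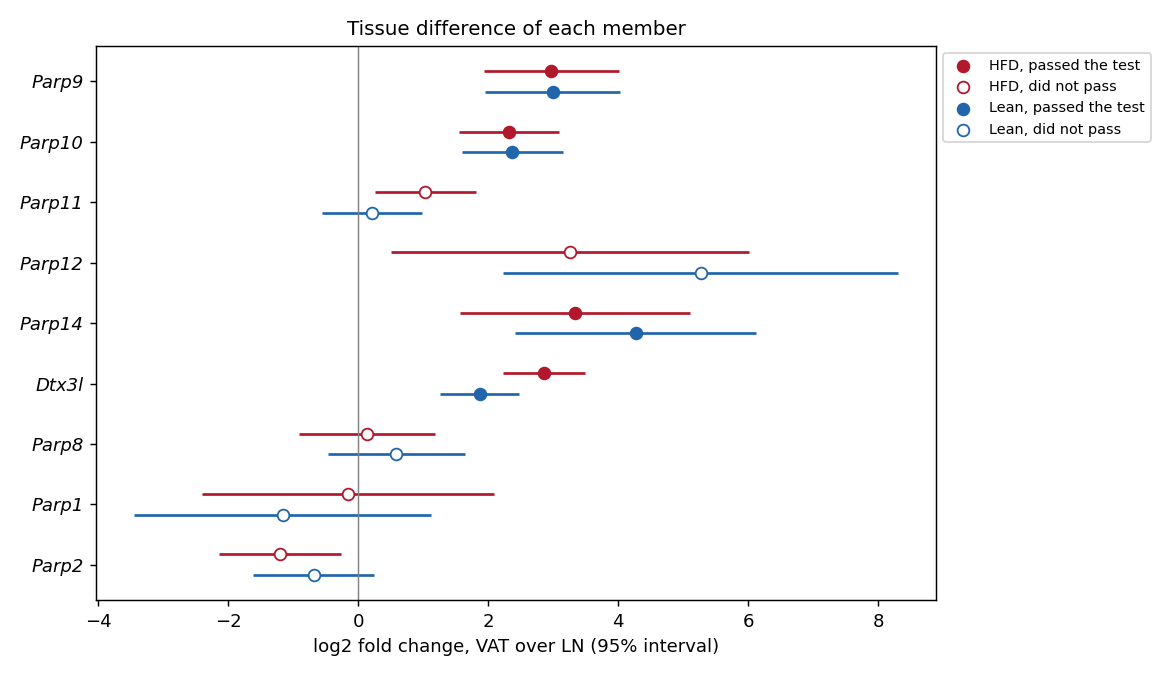
Log2 fold change of VAT over LN for each gene, on the high-fat diet (red) and on standard chow (blue), with 95% intervals; filled points passed edgeR's test. The intervals of Parp9, Parp10, Parp12, Parp14 and Dtx3l lie above 0 on both diets, and those of Parp8 and Parp1 include 0 on both.

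Parp8, another mono-ADP-ribosyltransferase, had 108, 112, 58.4 and 69.8 CPM in HFD VAT, against 65.9, 33.5, 50.9 and 164 CPM in HFD LN. Its log2 fold change between the tissues was 0.14 on the high-fat diet (95% interval -0.91 to 1.19) and 0.59 in lean mice (95% interval -0.46 to 1.64). In Lean VAT it had 36.5, 64.9, 109 and 90.4 CPM, against 67.7, 30.0, 48.0 and 54.3 CPM in Lean LN. The libraries overlapped on both diets, and the intervals are too wide to show that Parp8 was equal in the 2 tissues.

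Parp1, the main producer of ADP-ribose chains at DNA breaks, had 123, 33.2, 102 and 142 CPM in HFD VAT, against 82.6, 18.7, 165 and 179 CPM in HFD LN. In Lean VAT it had 0.136, 132, 81.4 and 61.0 CPM, against 142, 114, 160 and 197 CPM in Lean LN. The value of 0.136 CPM rests on 6 counts in replicate 1 of Lean VAT, while the other 3 Lean VAT libraries had 2533 to 7887 counts. The log2 fold change was -0.15 on the high-fat diet (95% interval -2.40 to 2.10) and -1.16 in lean mice (95% interval -3.44 to 1.12), intervals too wide to tell a rise from a fall. The size in lean mice depended on the libraries and the setting. It was -1.699 to -0.752 with 1 library left out and -2.924 to -0.78 under the other alternatives, and passed in none.

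Parp2, which shares the DNA repair role of Parp1, had 65.6, 118, 42.2 and 85.3 CPM in HFD VAT, against 162, 192, 255 and 108 CPM in HFD LN. In Lean VAT it had 49.5, 94.6, 72.2 and 164 CPM, against 92.1, 216, 201 and 102 CPM in Lean LN. Its group means were lower in VAT, but the libraries overlapped on both diets. The log2 fold change was -1.20 on the high-fat diet (95% interval -2.14 to -0.26, edgeR adjusted p = 0.151) and -0.69 in lean mice (95% interval -1.62 to 0.25, edgeR adjusted p = 0.615). Among 10 genes of single-strand break repair, the pathway in which Parp1 and Parp2 act, 0 rose and 0 fell on either diet, and the list's median log2 fold change was -0.37 on the high-fat diet and -0.19 in lean mice.

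The comparison of diets asks whether a high-fat diet changed these genes within a tissue. No member passed the test in VAT, where 0.0574% of all genes did, and no member passed in LN, where 0% did. At an unadjusted p under 0.05, 1 of 9 members differed in VAT and 1 of 9 in LN, beside 1266 and 529 of the 15675 genes tested. DESeq2 called no member in either tissue, and 769 and 236 of the 15675 genes tested.

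Dtx3l was the member with the unadjusted p under 0.05 in VAT, with 536 ± 186 CPM in HFD VAT against 323 ± 65.2 CPM in Lean VAT (SD, n = 4 each), a log2 fold change of 0.73 (95% interval 0.14 to 1.32, edgeR adjusted p = 0.520). In LN it had 73.9 ± 18.9 CPM on the high-fat diet and 88.1 ± 18.9 CPM on chow (SD, n = 4 each), a log2 fold change of -0.25 (95% interval -0.84 to 0.34). VAT minus LN, these diet effects differed by 0.98 on the log2 scale (95% interval 0.15 to 1.82) and did not pass (edgeR adjusted p = 0.710).

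Parp9 had 614 ± 161 CPM in HFD VAT against 391 ± 125 CPM in Lean VAT, and 78.4 ± 49.9 CPM in HFD LN against 49.0 ± 19.5 CPM in Lean LN (SD, n = 4 each). Its log2 fold change for diet was 0.65 in VAT (95% interval -0.32 to 1.62) and 0.68 in LN (95% interval -0.29 to 1.65). Parp10 had 490 ± 150 CPM in HFD VAT and 415 ± 70.1 CPM in Lean VAT, with a log2 fold change of 0.24 (95% interval -0.50 to 0.97). For both genes the diet groups overlapped.

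Parp14 was the only member of Parp9, Parp10, Parp12, Parp14 and Dtx3l with the lower mean in HFD VAT, at 212 ± 98.1 CPM against 289 ± 129 CPM in Lean VAT (SD, n = 4 each). The log2 fold change was -0.45 (95% interval -2.07 to 1.17), and the libraries overlapped. Parp12 had 24.9 ± 16.9 CPM in HFD LN against 3.26 ± 5.30 CPM in Lean LN (SD, n = 4 each), a log2 fold change of 2.93 (95% interval 0.21 to 5.65, edgeR adjusted p = 1). It was the member with an unadjusted p under 0.05 in LN, but replicate 4 of HFD LN, at 3.08 CPM, lay below replicate 1 of Lean LN, at 11.1 CPM. Without that Lean LN library the log2 fold change was 5.29 and still did not pass. Parp11 was the 1 member whose diet groups did not overlap in VAT, with 94.2 ± 41.0 CPM in HFD VAT and 55.1 ± 8.74 CPM in Lean VAT (log2 fold change 0.77, 95% interval -0.001 to 1.55, edgeR adjusted p = 0.620), where 1.12% of all genes were higher in HFD VAT without overlap.

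**Figure D3:**
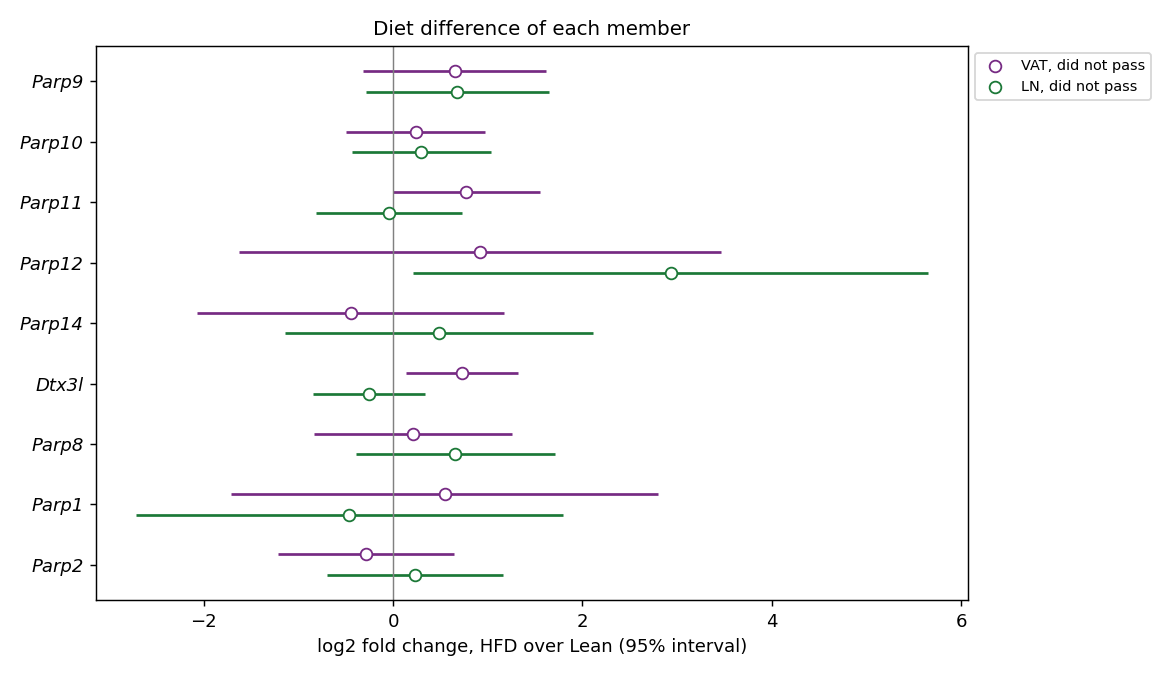
Log2 fold change of HFD over Lean for each gene, within VAT (purple) and within LN (green), with 95% intervals. No point passed edgeR's test, and the intervals of Parp12 and Parp1 are the widest.

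None of the 9 members passed the test of whether diet acted differently in the 2 tissues, where 0.0191% of all genes did. Since that contrast is also the difference between the tissue effects of the 2 diets, the tissue differences of the members were not shown to depend on diet. The group order of the means was HFD VAT, Lean VAT, HFD LN and Lean LN for Parp9, Parp10 and Parp12. Dtx3l had its LN groups, and Parp14 its VAT groups, the other way round. In these 5 genes the only neighbours in the order that did not overlap were the lower VAT group and the higher LN group.

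**Figure D4:**
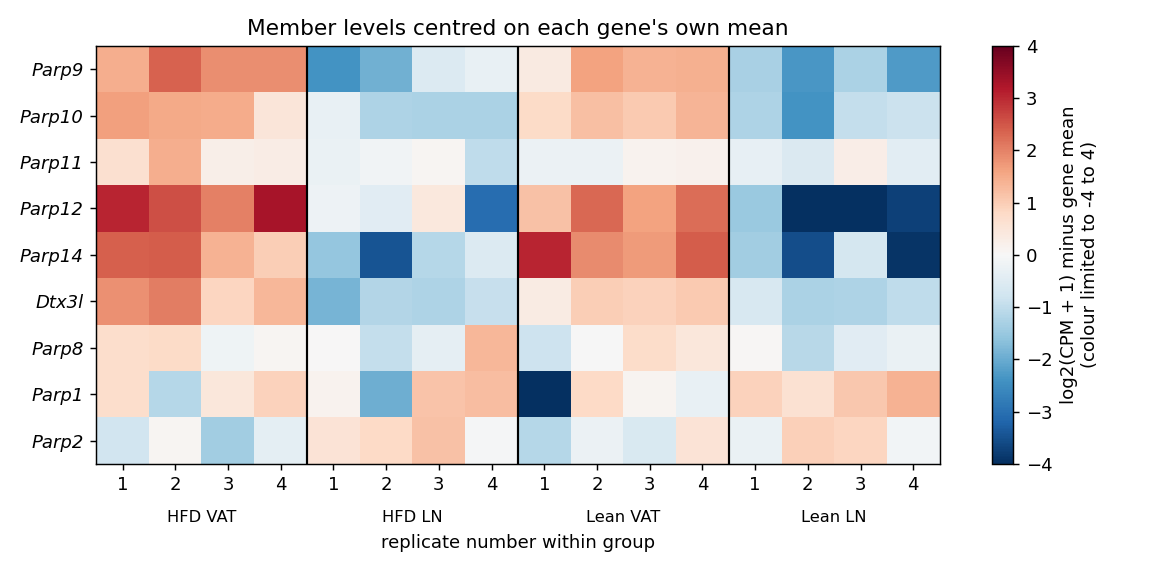
Log2(CPM + 1) of each gene in each library minus that gene's mean over the 16 libraries, with colours limited to -4 to 4; columns are the replicates of HFD VAT, HFD LN, Lean VAT and Lean LN. Parp12 and Parp14 show the strongest contrast between VAT (red) and LN (blue), and the dark cell of Parp1 is replicate 1 of Lean VAT.

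The members differed in how near their profiles lay to each other across libraries. The measure used depends on the size of each gene's changes, so a small value need not mean that genes moved together. The root mean square difference between centred log2(CPM + 1) profiles over the 16 libraries was 0.61 between Parp10 and Dtx3l and 0.67 between Parp9 and Dtx3l, the smallest of the 36 pairs. After centring within each group, which takes out the tissue and diet means, it was 0.48 for Parp9 and Dtx3l, and 4 other pairs were closer: Parp11 and Dtx3l at 0.42, Parp11 and Parp2 at 0.43, Dtx3l and Parp8 at 0.455, and Parp10 and Parp11 at 0.460. Parp1 stood 1.69 to 3.62 from every other member over the 16 libraries, with the library at 6 counts included.

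Among 9266 other named genes with a mean of at least 5 CPM, those with the profile nearest to Parp9 were Ifi35, Igtp and Tgtp2, at 0.58, 0.61 and 0.62, where the median gene stood at 2.11. Igtp and Tgtp2 encode interferon-inducible GTPases, and Ifi35 is an interferon-induced gene. Dennd4a and Id2 were the nearest to Parp14, at 0.82 and 0.90, beside a median of 2.63. Those nearest to Parp1 were Cdc23, Rnf115 and Trappc11, at 0.61, 0.74 and 0.78, beside a median of 2.07. All 3 of the genes nearest to Parp1 also had their lowest level in Lean VAT, at 0.317, 0 and 0 CPM, and each of these values came from replicate 1, the library in which Parp1 had 6 counts.

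Signalling genes of the interferon pathway were set beside the members from a list of 15, all of them tested. On the high-fat diet 7 rose and 1 fell in VAT, and in lean mice 6 rose and 1 fell; the list's median log2 fold change was 0.78 and 0.72. Irf7, a transcription factor that amplifies the interferon response, had 3931 ± 275 CPM in HFD VAT and 81.5 ± 36.0 CPM in HFD LN (SD, n = 4 each). Usp18, which removes ISG15 from proteins and restrains the receptor, had 1542 ± 192 CPM in HFD VAT and 19.9 ± 13.9 CPM in HFD LN, and 786 ± 129 CPM in Lean VAT and 51.0 ± 27.8 CPM in Lean LN (SD, n = 4 each). Jak1, a kinase bound to several cytokine receptors, fell to 1522 ± 273 CPM in HFD VAT, against 2990 ± 437 CPM in HFD LN, and to 1186 ± 290 CPM in Lean VAT, against 2894 ± 375 CPM in Lean LN (SD, n = 4 each).

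Stat2 and Irf9, which act together downstream of the type I interferon receptor, were singled out after their values were seen. Stat2 rose 12.6-fold on the high-fat diet (edgeR adjusted p = 0.000826) and 7.05-fold in lean mice (edgeR adjusted p = 0.00605). Irf9 rose 3.74-fold on the high-fat diet (edgeR adjusted p = 0.0413) and 3.92-fold in lean mice (edgeR adjusted p = 0.0454). Stat6, the partner of Parp14 in interleukin-4 signalling, did not pass on either diet, with log2 fold changes of 0.23 and -0.14.

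Of the 8 other PARP genes, all tested, 1 rose and 0 fell on the high-fat diet and 0 rose and 0 fell in lean mice, with median log2 fold changes of 0.30 and 0.09. The gene that rose was Zc3hav1, the catalytically inactive member that binds viral RNA, with 703 ± 103 CPM in HFD VAT against 259 ± 102 CPM in HFD LN (SD, n = 4 each; log2 fold change 1.44, edgeR adjusted p = 0.0135). Zc3hav1 averaged 505 ± 166 CPM in Lean VAT and 287 ± 48.9 CPM in Lean LN (log2 fold change 0.81, edgeR adjusted p = 0.221). The difference between its tissue effects on the 2 diets did not pass (log2 difference 0.63, 95% interval -0.28 to 1.54, edgeR adjusted p = 1).

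Of the 4 other Deltex ubiquitin ligase genes only Dtx4 was called, in lean mice, with 132 ± 61.3 CPM in VAT against 22.2 ± 8.57 CPM in LN (SD, n = 4 each; log2 fold change 2.57, edgeR adjusted p = 0.00917). Dtx4 averaged 115 ± 42.6 CPM in HFD VAT and 42.7 ± 16.4 CPM in HFD LN and did not pass (log2 fold change 1.43, edgeR adjusted p = 0.118). Genes that remove or read ADP-ribose (9 tested of 10), that supply or use NAD+ (13 tested of 17), or that encode the cell surface ADP-ribosyltransferases (4 tested of 6) had 0 rises and 0 falls on either diet. Their median log2 fold changes were 0.01, 0.03 and 0.04 on the high-fat diet and -0.38, 0.10 and -0.66 in lean mice. In these lists Nampt, the rate-limiting enzyme of NAD+ salvage, and Cd38, an NAD+ hydrolase, were looked at after their values were seen. Nampt had 129 ± 47.6 CPM in HFD VAT against 14.1 ± 10.2 CPM in HFD LN (edgeR adjusted p = 0.162). Cd38 had 112 ± 83.6 CPM in HFD VAT against 8.97 ± 14.1 CPM in HFD LN (edgeR adjusted p = 0.372). In lean mice Nampt had 65.2 ± 14.4 CPM in VAT against 21.3 ± 12.5 CPM in LN. Cd38 had 117 ± 30.3 CPM in Lean VAT against 2.12 ± 2.44 CPM in Lean LN (SD, n = 4 each). Neither gene passed on either diet.

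**Figure D5:**
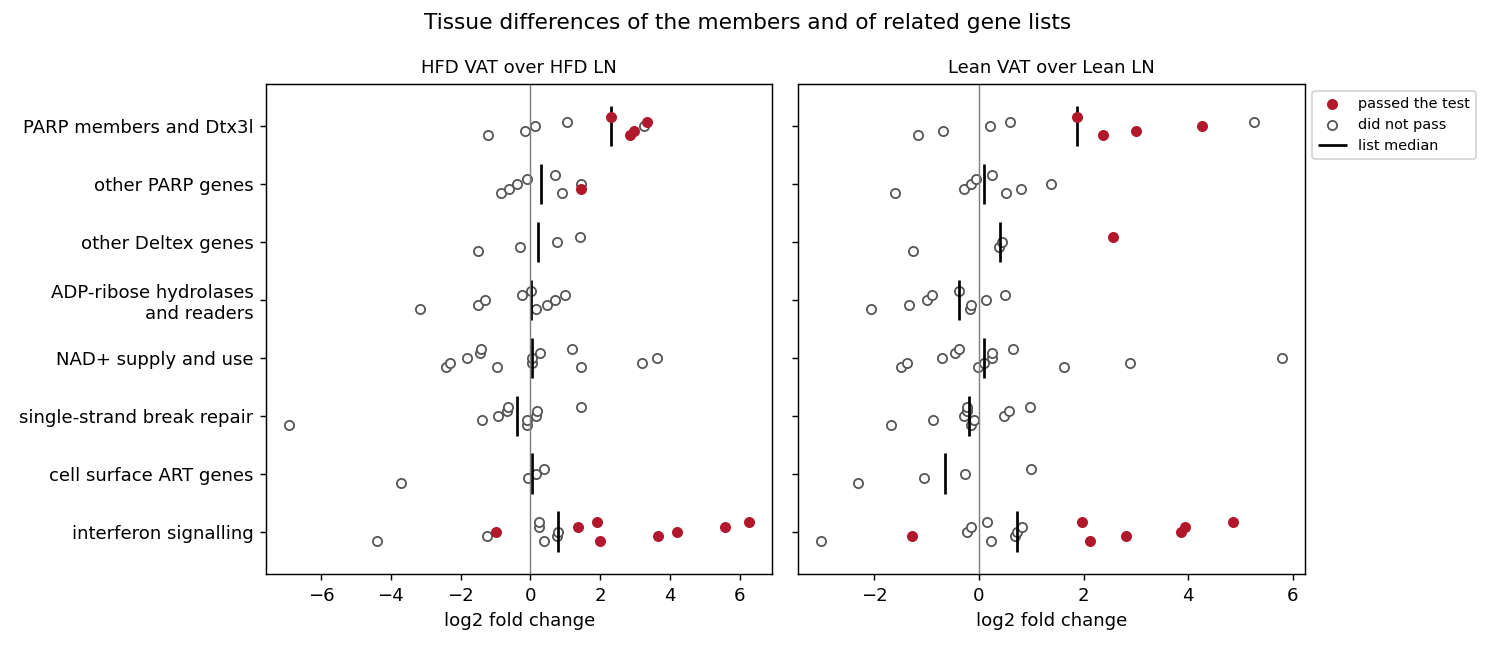
Log2 fold change of VAT over LN for the 9 members and for each tested gene of the 7 related lists, on the high-fat diet (left) and on chow (right); red points passed edgeR's test, and black bars mark list medians. The members have 4 red points on each diet, and interferon signalling has 8 on the high-fat diet and 7 on chow.

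The sequences at 4 gene starts are shown: that of Dtx3l, the only member that rose and has a window, those of Parp12 and Parp11, which did not pass, and that of Parp4, which is no member but held motif matches. RefSeq windows of 300 bases, from 250 bases before to 50 after the annotated start on GRCm38.p6, were at hand for Parp1, Parp2, Parp8, Parp11, Parp12 and Dtx3l. Parp9, Parp10 and Parp14 had none. Capitals mark matches to the core of the interferon-stimulated response element, spelled GAAA, any 2 bases, GAAA, or to the gamma-activated site, spelled TTCNNNGAA, each searched on both strands and counted where matches overlap.
Parp11, chr6:127446590-127446889, plus strand: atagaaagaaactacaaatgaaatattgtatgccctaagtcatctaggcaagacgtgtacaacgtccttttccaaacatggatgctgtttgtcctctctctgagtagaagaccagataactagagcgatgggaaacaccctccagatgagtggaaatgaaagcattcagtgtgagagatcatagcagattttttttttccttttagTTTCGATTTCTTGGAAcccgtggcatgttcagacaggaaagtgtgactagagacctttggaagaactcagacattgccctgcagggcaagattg
Parp12, chr6:39118300-39118599, minus strand: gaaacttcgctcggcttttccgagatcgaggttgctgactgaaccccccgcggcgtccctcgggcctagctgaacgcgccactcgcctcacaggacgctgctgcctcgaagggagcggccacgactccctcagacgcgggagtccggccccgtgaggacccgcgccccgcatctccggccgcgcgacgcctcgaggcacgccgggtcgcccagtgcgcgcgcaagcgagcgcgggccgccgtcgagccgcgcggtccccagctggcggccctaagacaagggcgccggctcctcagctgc
Dtx3l, chr16:35938978-35939277, minus strand: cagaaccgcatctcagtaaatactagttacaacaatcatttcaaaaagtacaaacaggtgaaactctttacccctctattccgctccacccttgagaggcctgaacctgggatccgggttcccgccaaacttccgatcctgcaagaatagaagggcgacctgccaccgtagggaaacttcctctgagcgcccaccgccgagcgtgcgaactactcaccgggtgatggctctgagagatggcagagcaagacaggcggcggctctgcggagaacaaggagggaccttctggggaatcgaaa
Parp4, chr14:56575369-56575668, plus strand: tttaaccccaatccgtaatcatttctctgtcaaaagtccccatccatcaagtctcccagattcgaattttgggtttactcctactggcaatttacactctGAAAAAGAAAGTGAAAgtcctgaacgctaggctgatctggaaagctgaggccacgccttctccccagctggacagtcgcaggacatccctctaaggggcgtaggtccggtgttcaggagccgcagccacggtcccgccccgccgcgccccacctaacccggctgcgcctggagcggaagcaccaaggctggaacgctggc

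The first of the Parp11 windows held both motifs side by side: TTTCGATTTC, the response element core on the other strand, began 44 bases before the start and overlapped a gamma-activated site match, TTCTTGGAA. That was the only match among the 7 windows of the 6 members with sequence. Over all 32851 windows 3.44% held the response element core, 8.30% the gamma-activated site and 0.454% both. The windows of Dtx3l, called on both diets, and of Parp12 held neither spelling, which says only that these letters are absent from these windows. Among the other PARP genes Parp4, a component of vault particles, had 2 overlapping response element matches, GAAAAAGAAA and GAAAGTGAAA; its levels were 36.0 ± 15.7 CPM in HFD VAT against 19.1 ± 14.6 CPM in HFD LN and 65.3 ± 28.2 CPM in Lean VAT against 25.0 ± 13.4 CPM in Lean LN (SD, n = 4 each), and it did not pass. Its 2 matches began 150 and 144 bases before the start. Parp16, of the same list, held a gamma-activated site match, TTCAGAGAA, 4 bases before the start.

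Markers of other cell types moved with the tissues beside these genes. The 10 B cell markers summed to 169 to 360 CPM in HFD VAT and 1730 to 2580 CPM in HFD LN, and to 85.6 to 221 CPM in Lean VAT and 1620 to 3110 CPM in Lean LN. Fcmr was at 0 in both VAT groups. The 10 macrophage markers summed to 33.4 to 131 CPM in HFD VAT and 0.0512 to 2.45 CPM in HFD LN, and to 27.5 to 78.7 CPM in Lean VAT and 0.102 to 6.13 CPM in Lean LN. Cd68 made up most of the VAT sums, with means of 60.9 CPM in HFD VAT and 38.8 CPM in Lean VAT, against 0.600 CPM in HFD LN and 1.58 CPM in Lean LN. Of the defining markers C1qa was at 0 in all 4 groups, and Adgre1 had 1 count in HFD VAT and 1 in Lean VAT and was at 0 in both LN groups. Lyz2 had a median of 0 CPM in both VAT groups and was at 0 in both LN groups. It nevertheless reached 16.1 CPM in an HFD VAT library and 17.8 CPM in a Lean VAT library. C1qb and Csf1r had medians of 0 CPM in HFD VAT and highest values of 25.7 and 9.73 CPM there. Fcgr1 reached 5.31 CPM in a Lean VAT library. The 6 dendritic cell markers summed to 59.8 to 110 CPM in HFD VAT and 0.443 to 16.8 CPM in HFD LN, and to 35.1 to 82.5 CPM in Lean VAT and 0.174 to 22.3 CPM in Lean LN. Itgax and Xcr1 made up most of the VAT sums, with means of 64.9 and 23.1 CPM in HFD VAT and 32.6 and 24.7 CPM in Lean VAT. Flt3 went the other way on the high-fat diet, at 0 in HFD VAT and a mean of 3.62 CPM in HFD LN. Siglech was at 0 in HFD VAT, HFD LN and Lean LN, and had 8 counts in Lean VAT. None of the 5 markers tested passed on either diet. The part of these cells in the tissue differences of the members was not tested. The 9 T cell markers summed to 10000 to 10900 CPM in HFD VAT and 8280 to 9380 CPM in HFD LN, and to 9030 to 11600 CPM in Lean VAT and 8180 to 10000 CPM in Lean LN. These sums hide opposite changes, since 1 of the 9 rose and 1 fell in VAT on each diet. Cd8a averaged 2077 CPM in HFD VAT against 665 CPM in HFD LN, and 1840 CPM in Lean VAT against 718 CPM in Lean LN. Cd8b1 averaged 1228 CPM in HFD VAT against 2072 CPM in HFD LN, and 1368 CPM in Lean VAT against 2058 CPM in Lean LN. The 5 NK cell markers summed to 44.4 to 107 CPM in HFD VAT and 13.8 to 113 CPM in HFD LN, and to 9.54 to 80.0 CPM in Lean VAT and 13.9 to 98.5 CPM in Lean LN. Most of the LN sums was Eomes, with means of 44.9 CPM in HFD LN and 47.5 CPM in Lean LN, against 25.2 CPM in HFD VAT and 21.5 CPM in Lean VAT. Klrb1c had the higher mean in VAT, with 50.2 CPM in HFD VAT against 0.840 CPM in HFD LN, and 21.3 CPM in Lean VAT against 0 in Lean LN. Klra8 and Klra4 also had higher means in VAT, but none of the 4 markers tested passed on either diet. Ncr1 was at 0 in HFD VAT, HFD LN and Lean LN, and had 48 counts in Lean VAT, where its median was 0 CPM. The 4 markers of CD4 T cells summed to 0.321 to 5.15 CPM in HFD VAT and 21.7 to 40.0 CPM in HFD LN, and to 4.97 to 26.4 CPM in Lean VAT and 24.5 to 32.5 CPM in Lean LN, where the libraries overlapped. Cd40lg made up most of the LN sums, with means of 27.7 CPM in HFD LN and 28.5 CPM in Lean LN. It fell to 0 in HFD VAT (edgeR adjusted p = 0.00358). In Lean VAT it had a mean of 3.65 CPM and did not pass (edgeR adjusted p = 0.36). Zbtb7b, a transcription factor of the CD4 lineage, went the other way and rose 37.2-fold in Lean VAT (edgeR adjusted p = 0.0196). Zbtb7b did not pass on the high-fat diet (edgeR adjusted p = 0.219). Cd4 had 4 counts in HFD VAT, 2 in HFD LN, 1 in Lean VAT and 267 in Lean LN. Foxp3 had 1 count, in HFD VAT. The 3 endothelial markers summed to 43.5 to 98.4 CPM in HFD VAT and 124 to 204 CPM in HFD LN. In lean mice the sums were 29.0 to 67.5 CPM in VAT and 70.3 to 168 CPM in LN. Pecam1 made up nearly all of these sums, with means of 65.7 CPM in HFD VAT and 159 CPM in HFD LN. Its means were 47.0 CPM in Lean VAT and 113 CPM in Lean LN, and it did not pass on either diet. Kdr had a mean of at most 0.0444 CPM in any group. Cdh5 was at 0 in both groups on the high-fat diet and had a mean of at most 0.0361 CPM in lean mice. Fibroblast markers reached 40.5 CPM in an HFD VAT library and 11.9 CPM in a Lean VAT library, against at most 0.947 CPM in HFD LN and 0.952 CPM in Lean LN. The summed markers of adipocytes were at most 0.290 CPM, and those of neutrophils at most 0.113 CPM, in any library.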

How the data were processed

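RNA of OT-I T cells was measured in 16 libraries, in 4 groups of 4. The deposited table holds whole-number counts per gene symbol, not normalized. The tools listed in the submitters' processing notes are DESeq2 and kallisto 0.42.4, and the build named there is GRCh38, a human assembly, although the table carries mouse symbols. Kallisto estimates counts, so the deposited counts may have been rounded, and reads of near-identical or overlapping genes may be divided between them. The labels name 2 library kits and 2 sequencers, and their growth protocol describes human fibroblasts, so the protocol is uncertain.

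Counts were scaled by TMM, filtered with filterByExpr, which left 15675 genes, and fitted over all 4 groups with edgeR 4.0.16 (robust quasi-likelihood test, R 4.3.3), with Benjamini-Hochberg adjustment over all genes tested and a threshold of 0.05. Intervals of 95% come from an approximate SE, the log2 fold change divided by the root of F. Libraries held 40212388 to 65957407 counts, so that 3 counts correspond to 0.0437 to 0.0804 CPM. Replicates of a group differed beyond sampling noise in all 24 pairs (chi-square of 266 to 992 per degree of freedom). Alternatives were DESeq2 1.42.0, voom in limma 3.58.1, RLE scaling, keeping all genes with a count or those with 5 CPM or more in at least 4 libraries, a fit of only the groups compared, a replicate block, each library left out, and the 3 VAT libraries rich in missing genes left out.

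The members and lists were chosen with earlier results of these data known. Named were all members, up to 2 called genes per list, direction and comparison with the largest change, cell type markers, and the 3 genes nearest in profile to Parp14, Parp9 and Parp1. Some genes that this rule names are not reported here.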

Additional observations from a re-analysis of the deposited data

Results flagged for a closer look

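In HFD LN the Parp10 level of replicate 1, 154.6 CPM, stood apart from the other 3 libraries, with a gap of 0.969 of the group's range. In Lean LN the Parp12 level of replicate 1, 11.15 CPM, stood apart likewise, with a gap of 0.859 of the range. Both gaps exceed Dixon's 95% critical value for 4 samples. There were 36 groups of 4 libraries tested, and chance flags about 5% of such groups, so that 2 flags are near what chance gives.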

How the results depend on the processing

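Parp9, Parp10 and Dtx3l kept their rise in VAT on both diets under every alternative run, with log2 fold changes of 2.71 to 3.33, 2.04 to 2.63 and 2.66 to 3.04 on the high-fat diet and of 2.83 to 3.20, 2.13 to 2.53 and 1.79 to 2.01 in lean mice. The number of members called ranged over 3 to 6 on the high-fat diet and 3 to 5 in lean mice, and it stayed at 0 in the other 3 comparisons. Parp14 on the high-fat diet also missed the threshold with no filter (adjusted p = 0.0608) and with voom (0.0507). Parp12 in lean mice passed with the filter of 5 CPM (0.0420) and with voom (0.00413), where its log2 fold change was 7.97.

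The count of all genes called depended on the tool. With DESeq2 it was 2578 and 1569 for the tissues on the high-fat diet and in lean mice, 769 and 236 for diet in VAT and LN, and 635 for the difference between diet effects. With voom it was 748 in lean mice, 25 and 4 for diet in VAT and LN, and 6 for the difference. Without a filter it was 441 on the high-fat diet, 2 for diet in VAT and 1 for the difference, and the 5 CPM filter also gave 1 for the difference. Fitting only the groups compared gave 0 for diet in VAT, and that setting could not be applied to the difference, which uses all groups. Without the 3 VAT libraries it was 62 for diet in VAT and 46 for the difference. Leaving out 1 library gave 483 to 632 and 325 to 492 for the tissues, 3 to 40 for diet in VAT, 0 to 1 in LN and 0 to 24 for the difference. The causes were not tested.

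Same-numbered libraries did not deviate together (correlations of -0.098 to 0.045 over 16 pairs). This cannot settle whether a number marks an animal. Some of the pairs set 1 diet against the other, and a small animal effect could be hidden by the spread between libraries. With the replicate block 505 and 337 genes were called for the tissues, 1 for diet in VAT and 0 for the difference, and Parp14 on the high-fat diet had a log2 fold change of 3.52 (adjusted p = 0.0673).

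Signs reversed only for values that passed in no setting. The difference between diet effects was 0.054 (RLE), 0.003 (no filter), 0.054 (DESeq2), 0.24 (voom) and 0.19 (replicate block) for Parp9, and 0.056 (RLE and DESeq2) for Parp10. Parp1 had 0.14 for the tissues on the high-fat diet with voom. Without the 3 VAT libraries diet in VAT gave -0.11 for Parp10 and -0.049 for Parp1. With 1 library left out the difference was -0.28 to 0.34 for Parp9, -0.21 to 0.27 for Parp10 and -0.70 to 0.22 for Parp8. For diet it was -0.015 to 0.47 for Parp10 in LN, -0.19 to 0.17 for Parp11 in LN, -0.019 to 0.45 for Parp8 in VAT and -0.56 to 0.11 for Parp2 in VAT. For the tissues on the high-fat diet it was -0.51 to 0.17 for Parp1 and -0.11 to 0.79 for Parp8. RLE moved the median of all genes by 0.10 for the difference, and voom moved it by -0.27 for the tissues on the high-fat diet. With 3 counts as the floor, levels under 0.0437 CPM could not be told from none.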
